A study of Rattus norvegicus with 8 samples.

Results

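The miRNAs described here are those of the hairpins mir-142, mir-223, mir-150 and mir-155, which are markers of white blood cells, in kidneys of rats given aristolochic acid (AA) or saline. They were picked by name from the miRNA count table, with any arm of these 4 hairpins admitted. Of the 620 listed names, 7 matched, namely rno-miR-142-3p, rno-miR-142-5p, rno-miR-223, rno-miR-223*, rno-miR-150, rno-miR-150* and a second name spelled rno-mir-150* with a lower-case r. None of the names used here matched miR-155, a miRNA of activated lymphocytes and macrophages, and it was not analysed here. The animals were male Big Blue rats on the Fisher 344 background, a transgenic strain used for mutation assays, and were 6 weeks old when dosing began. The AA group of 4 rats received AA as a sodium salt by gavage at 10 mg/kg, 5 times a week over 12 weeks, and the control group of 4 rats received 0.9% sodium chloride in the same way. Each library was made from the kidney RNA of 1 rat and held between 13412373 and 15616670 reads on known miRNAs. The tissue field of the labels reads liver, whereas the other labels and the methods of the study name the kidney. In the libraries, miR-30a, a miRNA abundant in the nephron, averaged 125631 CPM in the control libraries (reads scaled to 1000000 per library, after TMM scaling between libraries), while the liver miRNA miR-122 was between 0.696 and 5.89 CPM in 6 libraries, 53.0 in the first control library and 523 in the second AA library.

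A miRNA is cut from a hairpin precursor, whose 5p and 3p arms can each give a mature miRNA, and it then finds its target mRNAs mainly through its seed, the bases 2 to 8 from its 5′ end. The hairpin mir-142 is transcribed across nearly all blood cell lineages and is a general marker of leukocytes. miR-223 is most abundant in neutrophils and monocytes, the myeloid side, and miR-150 in mature B, T and NK lymphocytes. In a piece of whole kidney these miRNAs can come from leukocytes in the tissue and from blood in its vessels, and their cell source was not measured here. In such bulk RNA, a change in the number of leukocytes and a change in miRNA per leukocyte cannot be told apart.

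The sequences of both arms of mir-142 and of mir-223 are shown because the results turn on how the arms of one hairpin differ. They were taken from RefSeq on the rat assembly GRCr8, with 4 of the 7 names matched. The table's older names rno-miR-223 and rno-miR-223* stand for the arms now called 3p and 5p. The seed is in capitals, the rest in lower case, and all 4 lie on the plus strand.
rno-miR-142-5p (chr10:73055119-73055139): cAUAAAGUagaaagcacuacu
rno-miR-142-3p (chr10:73055155-73055177): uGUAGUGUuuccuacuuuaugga
rno-miR-223* (chrX:65151408-65151430): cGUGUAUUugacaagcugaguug
rno-miR-223 (chrX:65151450-65151470): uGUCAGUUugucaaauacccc
Each of these 4 seeds was carried by 1 of the 693 mature names in the RefSeq table, so that no other listed rat miRNA shares a seed with them. miR-142-3p has 23 bases and miR-142-5p has 21, while miR-223 has 21 and its opposite arm has 23. The whole mir-142 hairpin of 87 bases (chr10:73055104-73055190, plus strand) is given with its 5p arm and then its 3p arm in capitals.
rno-mir-142 hairpin: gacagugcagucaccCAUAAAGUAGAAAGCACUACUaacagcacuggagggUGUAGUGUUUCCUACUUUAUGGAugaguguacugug
In the RefSeq gene table of the same assembly, the mir-142 gene lies inside the span of the protein-coding gene Tspoap1 and the mir-223 gene inside that of a long non-coding RNA, LOC120099372. No listed gene contains mir-150.

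Among the leukocyte miRNAs, miR-142-3p and miR-223 rose in the kidneys of the AA group, by 2.78 and 2.02 times. miR-150 lay higher in every AA rat than in any control rat, by 1.49 times, but did not pass the adjusted test, and miR-142-5p and miR-223* did not pass it either. Of the 7 names, 5 reached the minimum of 10 reads in 4 or more libraries and were tested together with all other miRNAs at that depth, 367 in all (quasi-likelihood test of edgeR, p adjusted by the Benjamini-Hochberg method, threshold 0.05). The 2 that rose are 2 of 5, whereas 10.4% of all tested miRNAs were called higher and 16.3% were called in either direction. Of these 60 calls 38 were higher, against 54 of 68 when libraries were scaled to their totals instead of by TMM. None of the 5 was called lower, as 5.99% of all tested miRNAs were. The members were chosen with earlier results of these data known, so these counts are no test against those shares. The median log2 fold change was 1.02 over the 5 members tested and 0.06 over all tested miRNAs, and the members that passed the read minimum include both arms of 2 hairpins, which share a transcript. miR-223*, which lay near the minimum, reached 10 reads in 3 control and 4 AA libraries.

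rno-miR-142-3p, the main product of the pan-leukocyte hairpin, was by far the most abundant of them. Its level was 1108, 936, 1010 and 761 CPM in control libraries 1 to 4, and 2209, 2656, 1854 and 3875 CPM in AA libraries 1 to 4. All AA libraries lay above all control libraries, the lowest of them being the third and the highest the fourth, while the fourth control library was the lowest of its group. The group means were 954 ± 146 and 2649 ± 881 CPM (SD, n = 4 each), and edgeR gave a log2 fold change of 1.47 with a standard error of 0.23 and an adjusted p of 0.00182. These levels rest on 9348 to 16285 reads per control library and 26954 to 65415 per AA library. By abundance within a library, miR-142-3p moved from a median rank of 46 among control to 31.5 among AA libraries. Without the fourth AA library its log2 fold change was 1.15 and was still called (adjusted p = 0.00195 from edgeR).

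rno-miR-223, the myeloid member, was at 39.8, 38.8, 37.5 and 43.7 CPM in the 4 control libraries. In the AA libraries it was at 82.9, 80.1, 48.8 and 111 CPM. The groups did not overlap, although the third AA library lay close to the control range, and the fourth was again the highest. The means were 40.0 ± 2.69 and 80.8 ± 25.5 CPM (SD, n = 4 each), for which the log2 fold change was 1.02 with a standard error of 0.25 and edgeR's adjusted p was 0.0195. This call was lost when any of 6 libraries was left out, namely control 1, 2 or 3 or AA 1, 2 or 4, with adjusted p between 0.0554 and 0.0686 from edgeR, and the log2 fold change was 0.73 without the fourth AA library. Its opposite arm rno-miR-223* had 13, 11, 13 and 8 reads in the control libraries and 26, 13, 23 and 58 reads in the AA libraries. The second AA library was thus at the level of the control group, whereas the other AA libraries were above it, and the log2 fold change of 1.24 (standard error 0.44) gave an adjusted p of 0.0889 from edgeR.

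rno-miR-150, the lymphoid member, was at 61.2, 55.6, 52.2 and 67.4 CPM in the control libraries. It was at 77.3, 89.4, 80.4 and 105 CPM in the AA libraries. The groups did not overlap and the gap between them was small beside their ranges. The means were 59.1 ± 6.67 and 88.1 ± 12.5 CPM (SD, n = 4 each), so that the log2 fold change of 0.58 with its standard error of 0.19 gave an adjusted p of 0.0617 in edgeR. The call depended on the settings, since the DESeq2 Wald test gave an adjusted p of 0.0244 for a log2 fold change of 0.52. The opposite arm was almost without reads. rno-miR-150* had 0 to 4 reads per control library and 4, 4, 5 and 24 per AA library, and rno-mir-150* had 0 to 3 reads in any library, so that neither was tested. A library with 0 reads allows a share of up to 1.92e-05% to 2.24e-05% of its reads (3 reads of the total, counting error only).

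**Figure D1:**
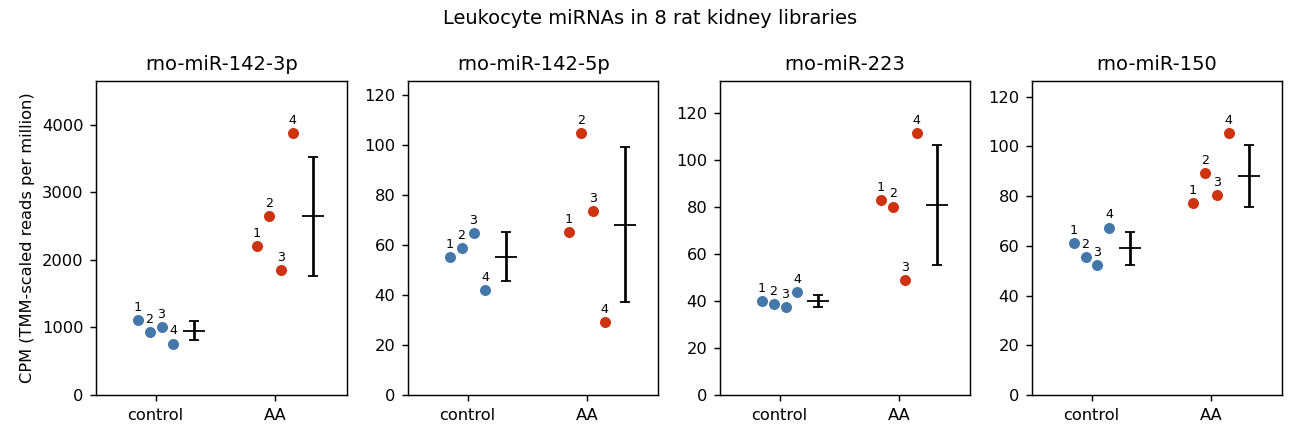
Level of 4 leukocyte miRNAs in CPM (TMM-scaled, linear axes from 0), with 1 point per library marked by its library number and, beside each group, the mean and SD of 4 libraries. miR-142-3p, miR-223 and miR-150 show no overlap between control and AA, whereas the fourth AA library is the lowest of all 8 for miR-142-5p, at 29.3 CPM.

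rno-miR-142-5p, the other arm of the pan-leukocyte hairpin, was not called. It was at 55.0, 58.9, 64.9 and 41.8 CPM in the control libraries and 65.0, 104, 73.4 and 29.3 CPM in the AA libraries. The first 3 AA libraries lay above every control library, the first of them only just, and the fourth AA library lay below all of them, in the same library where miR-142-3p was highest. The means were 55.1 ± 9.78 and 68.0 ± 30.9 CPM (SD, n = 4 each), and the log2 fold change of 0.30 was smaller than its standard error of 0.34, with an adjusted p of 0.559 in edgeR. Its sign rested on single libraries, since the value was -0.10 without the second AA library and 0.47 without the fourth, and neither was called.

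Of the 5 tested members, miR-142-3p, miR-223 and miR-150 had every AA library above every control library, which held for 14.4% of all tested miRNAs. In the control group the order of levels was miR-142-3p, then miR-150, miR-142-5p and miR-223, followed by the opposite arms with few reads. The control ranges of miR-150 and miR-142-5p overlapped, as did those of miR-142-5p and miR-223. In the AA group miR-150, miR-223 and miR-142-5p all overlapped, and miR-142-3p stayed far above them. Adaptors are ligated to different miRNAs with different efficiency, so that an order of levels between miRNAs is one of reads and not of molecules.

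**Figure D2:**
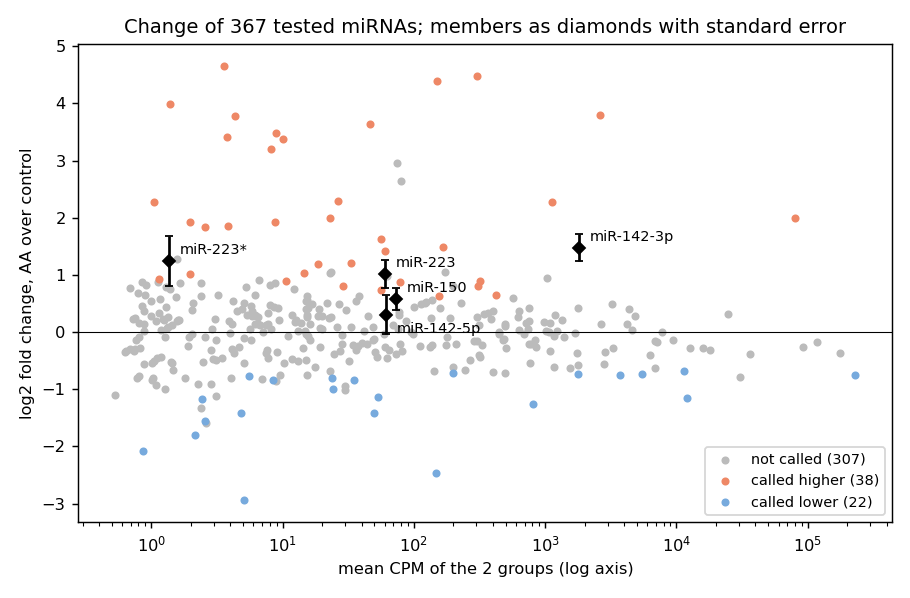
Log2 fold change of AA over control against the mean CPM of both groups (log axis) for the 367 tested miRNAs, with the 5 tested members as diamonds and their standard errors. miR-142-3p at 1.47 and miR-223 at 1.02 are among the 38 miRNAs called higher, while miR-150, miR-142-5p and miR-223* lie above 0 without a call.

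Whether the lineages changed alike was addressed with ratios of 2 miRNAs within a library, which do not depend on the scaling between libraries. None of the 4 ratios passed the threshold of 0.05 after adjustment, and 2 of them had no overlap between the groups. The side of the threshold depended on single rats, since 3 of the 4 ratios reached an adjusted p of 0.0381 in the exact permutation test when the first AA library was left out (all but miR-223 to miR-150) and 3 when the third was (all but miR-223 to miR-142-3p). The number of miR-150 reads per miR-142-3p read was 0.0553, 0.0594, 0.0517 and 0.0885 in the control libraries and 0.0350, 0.0337, 0.0434 and 0.0272 in the AA libraries. All AA libraries lay below all control libraries, and the mean log2 ratio differed by -0.86 (standard error 0.22, exact permutation test, two-sided, p = 0.0286, adjusted p = 0.0571 over 4 ratios). The raw p is the smallest that 4 against 4 rats can give, and the adjusted p was above the threshold. For miR-223 per miR-142-3p, the log2 ratio averaged -4.56 ± 0.31 in control and -5.04 ± 0.22 in AA libraries (SD, n = 4 each). The first AA library lay within the control range, and the difference of -0.47 (standard error 0.19) gave p = 0.0857 and an adjusted p of 0.114 in the same exact permutation test.

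The ratio of the myeloid to the lymphoid member was narrow among control rats and wide among AA rats. There were 0.651, 0.698, 0.720 and 0.650 miR-223 reads per miR-150 read in the control libraries and 1.07, 0.896, 0.608 and 1.06 in the AA libraries. In 3 AA rats the ratio was above every control rat, and in the third it was below every control rat. The mean log2 ratio was -0.56 ± 0.07 in control and -0.17 ± 0.38 in AA rats (SD, n = 4 each) and did not pass the test, with a difference of 0.38, a standard error of 0.19 and p = 0.143 (exact permutation test, two-sided, adjusted p = 0.143).

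**Figure D3:**
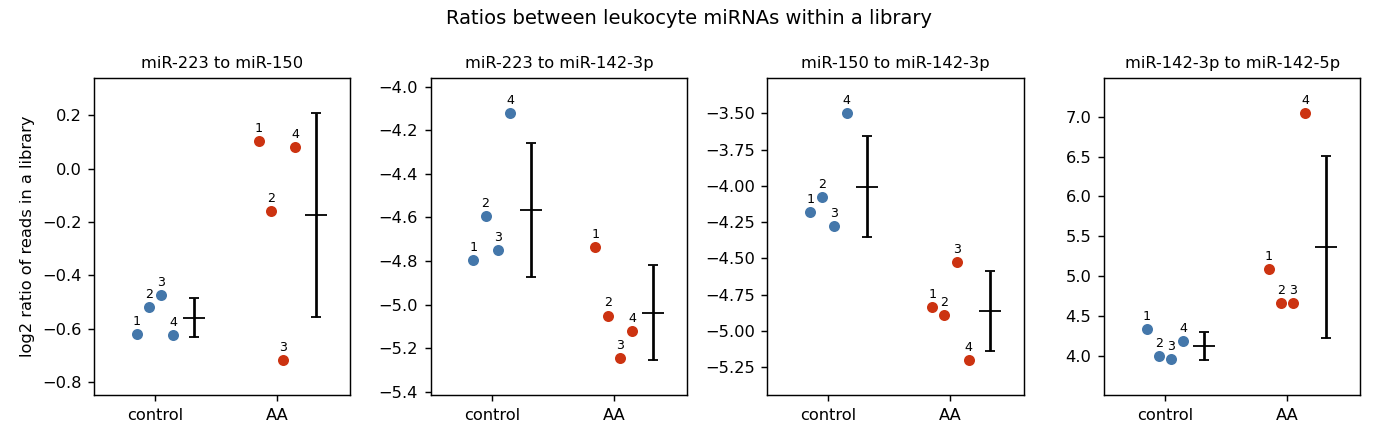
Log2 ratio of the reads of 2 leukocyte miRNAs within each library, with 1 point per library marked by its number, and the mean and SD of 4 libraries beside each group (axes do not start at 0). AA and control libraries do not overlap for miR-150 to miR-142-3p and for miR-142-3p to miR-142-5p, and the third AA library stands below the other 3 for miR-223 to miR-150.

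The 5p arm of mir-142 held a lower share of the hairpin's reads in every AA library, although the shift did not pass an adjusted test. The 5p arm made up 4.73%, 5.92%, 6.04% and 5.20% of the reads of the hairpin in the control libraries and 2.86%, 3.79%, 3.81% and 0.7495% in the AA libraries. The fourth AA library stood well below the rest, with a 95% Wilson interval of 0.687% to 0.818%. Among the other 7 libraries the intervals of the 3 AA libraries ended at 4.04% or lower and those of the control libraries began at 4.40% or higher, which covers counting error only. On average the 5p share was 5.47% ± 0.618 in control and 2.80% ± 1.44 in AA libraries (SD, n = 4 each), and 3.48% ± 0.542 in AA libraries 1 to 3 (SD, n = 3). As a log2 ratio of 3p to 5p reads the difference was 1.25 (standard error 0.58, exact permutation test, two-sided, p = 0.0286, adjusted p = 0.0571 over 4 ratios), and it was 0.69 without the fourth AA library.

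To place this shift, the same log2 ratio was computed for all 107 hairpins with both arms above the read minimum and tested with limma. Of the 107 hairpins, 3 were called at an adjusted p under 0.05, which is 2.8%, and mir-142 was not one of them (difference 1.25, standard error 0.48, adjusted p = 0.215 from limma). By the size of its shift over all 8 libraries mir-142 was the third of the 107, with a median absolute shift of 0.28 over all of them. That rank depended on the fourth AA library, without which the shift was 0.69 and mir-142 was no longer the third. The arms of mir-223 showed no such shift, with a mean log2 ratio of 5.57 ± 0.29 in control and 5.51 ± 0.86 in AA libraries (SD, n = 4 each), a difference of -0.06 and an adjusted p of 0.952 from limma, at only 8 to 58 reads of miR-223* per library. The fourth AA library was the highest or the lowest of the 8 libraries in 54 of the 107 arm ratios (50.5%) and the fourth control library in 36 (33.6%), against 15 to 29 of the ratios for each of the other 6, where an even split among the libraries would give 25%. For miR-126, an endothelial miRNA, the log2 ratio to miR-126* was 4.20 in the fourth AA library and 1.31 to 2.53 in the other 7 libraries. The part of these libraries' general departure in the mir-142 shift was not tested beyond leaving them out. Without both libraries numbered 4, a setting chosen after the data were seen, the mir-142 difference was 0.71 (adjusted p = 0.133 from limma).

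**Figure D4:**
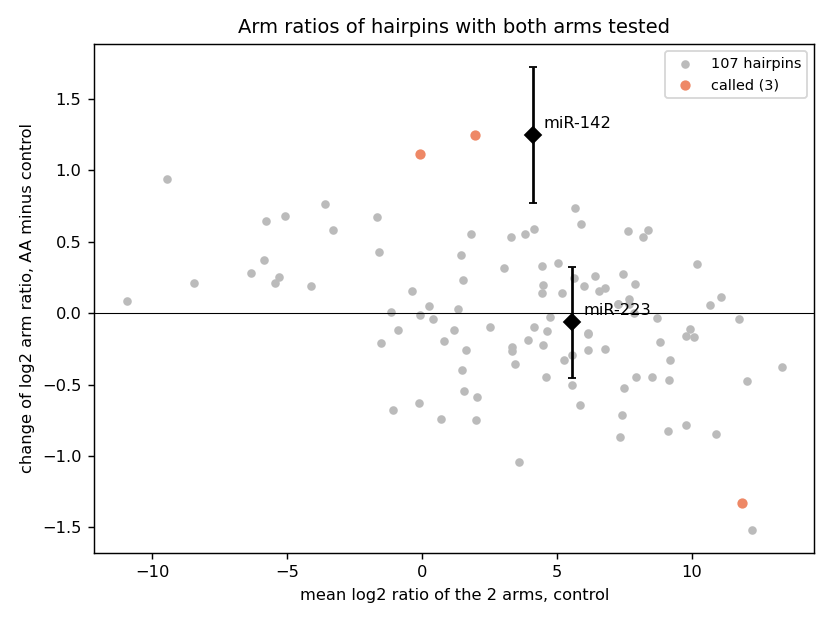
Change in the log2 ratio of the 2 arms of a hairpin between AA and control against its mean in the control group, for the 107 hairpins with both arms tested (limma). The called hairpins are coloured, and mir-142 at 1.25 and mir-223 at -0.06 are diamonds with their standard errors.

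Blood left in the kidney would carry red cells together with leukocytes, so the leukocyte miRNAs were set against miRNAs of red blood cells. The red cell list had 3 fixed members, of which miR-144 and miR-451 were listed and tested and miR-486 was not matched. Neither was called, and the log2 fold change of miR-451, the erythroid miRNA that makes up most of the list, was -0.72 (adjusted p = 0.176 from edgeR). The summed level of the list was 499, 798, 674 and 574 CPM in the control libraries and 448, 564, 380 and 158 CPM in the AA libraries. The groups overlapped, and the fourth AA library was the lowest of the 8. Red cell miRNAs thus lay lower in the mean of the AA group, 388 ± 171 against 636 ± 130 CPM (SD, n = 4 each), where miR-142-3p and miR-223 were higher. Whether the kidneys were perfused is not given in the sources used here, and the part of blood in the leukocyte values was not tested beyond these values.

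Relative to the red cell list, all 4 main members were higher in every AA library than in any control library. They include miR-142-5p, whose groups overlapped in CPM. The share of all tested miRNAs for which the same holds was not computed, so whether it is particular to these members was not tested. For miR-142-3p there were 2.22, 1.17, 1.50 and 1.33 reads per red cell miRNA read in the control libraries and 4.93, 4.71, 4.88 and 24.5 in the AA libraries. The fourth AA library stands apart, while the other 3 lie close together above the control range. The mean log2 ratio differed by 2.27 for miR-142-3p (standard error 0.62), 1.79 for miR-223 (standard error 0.59), 1.41 for miR-150 (standard error 0.52) and 1.02 for miR-142-5p (standard error 0.17). Each gave p = 0.0286 in the exact permutation test, two-sided, the smallest possible with 4 against 4 rats, and the same value after adjustment over these 4 comparisons. Without the fourth AA library the differences were 1.68, 1.24, 0.93 and 0.99 in the same order, and the adjusted p of each was again 0.0286 in the exact permutation test. All 4 went to an adjusted p of 0.0571 in that test when the second or the third control library was left out, as did miR-150 without the fourth. Both a higher leukocyte miRNA and a lower red cell miRNA enter such a ratio. The 4 ratios divide by the same red cell reads, so that they are not 4 independent results.

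Marker miRNAs of other kidney cell types were examined in the same fit. Their lists, too, were chosen with earlier results of these data known. In the nephron list, 2 of 6 tested members fell, against 5.99% called lower among all tested miRNAs. They were miR-194, whose adjusted p of 0.0499 from edgeR lay just under the threshold, and miR-204 (adjusted p = 0.0337 from edgeR). The others were not called, and the median log2 fold change was -0.50 over the list against 0.06 over all. None of the 5 epithelial members (miR-141 and the miR-200 group) and neither arm of the endothelial miR-126 was called, where 16.3% of all tested miRNAs were called in either direction. In the smooth muscle and stroma list, miR-199a-3p, a fibroblast-linked miRNA, rose with a log2 fold change of 0.65 (adjusted p = 0.0327 from edgeR). The other 4 of 5 were not called, where 10.4% of all tested miRNAs were called higher, and the median was 0.50 over the list. All AA libraries lay above all control libraries for miR-199a-3p, whereas the sum of the list, 199712 ± 26926 CPM in control and 156171 ± 19144 in AA libraries (SD, n = 4 each), is nearly all miR-143 of smooth muscle. The summed level of the nephron list averaged 193390 ± 34254 CPM over control and 158248 ± 24105 over AA libraries (SD, n = 4 each), and these values are set beside the leukocyte miRNAs because a share of reads lost by abundant miRNAs is gained by others. With the 10 most abundant miRNAs taken out of the table and of the library totals, the log2 fold change was 1.48 for miR-142-3p, 1.02 for miR-223 and 0.58 for miR-150. TMM scaling, which gives little weight to extreme miRNAs, was used in both fits, so these values could hardly differ from the main ones. They do not test whether such a shift of reads took part. Scaling to library totals moved the median log2 fold change up from 0.06 to 0.27, and those of miR-142-3p, miR-223 and miR-150 by nearly the same amount. Relative to the median, their values were 1.41, 0.95 and 0.52 under either scaling, which is largely so by construction.

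**Figure D5:**
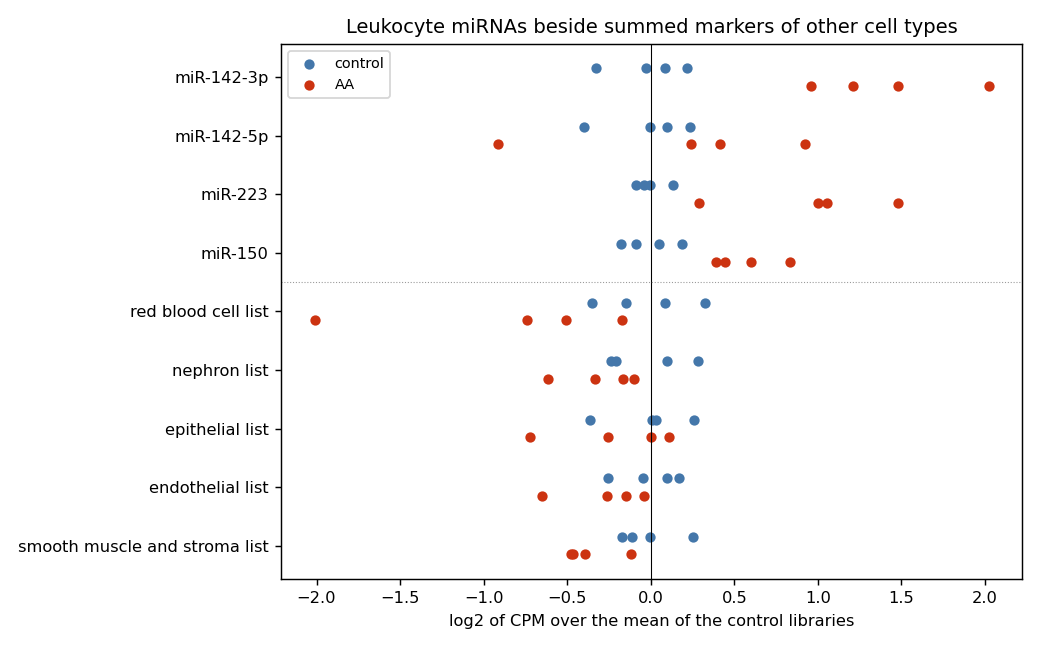
Level of 4 leukocyte miRNAs (upper rows) and summed level of the marker miRNAs of other cell types (lower rows) in each library, as log2 of CPM over the mean of the 4 control libraries. The AA libraries lie to the right of all control libraries for miR-142-3p, miR-223 and miR-150 and not for any of the summed lists in the lower rows, of which the stroma row is mostly miR-143, and the fourth AA library is the lowest for the red blood cell list, at 158 CPM.

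Of 11 further immune-linked miRNAs, 9 were tested, 4 rose and none fell, where 10.4% of all tested miRNAs were called higher and 5.99% lower. The list was chosen with earlier results of these data known, so these counts are no test against those shares. The median log2 fold change was 0.19 over the list and 0.06 over all. The 4 were miR-146b, a brake on NF-κB signalling, miR-511*, from an intron of the macrophage mannose receptor gene, miR-21, which is induced in many injured tissues, and miR-132, which is induced by CREB in several cell types. Most of these are also made by cells other than leukocytes. miR-146a, the close relative of miR-146b, was not called (log2 fold change -0.09, adjusted p = 0.713 from edgeR), and neither were miR-342-3p, miR-342-5p, miR-181a and miR-181b, of which miR-181a is known for its role in developing lymphocytes. miR-342-3p averaged 40.7 ± 7.27 CPM in control and 34.3 ± 1.30 in AA libraries (SD, n = 4 each). miR-424 was not matched, and miR-511 had 0 to 3 reads per library and was not tested.

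The miRNAs that each member most resembled over the 8 libraries were found by Pearson's r of log2 CPM. This r is given as a description because all values of a library share its depth and scaling. miR-142-3p and miR-223 had r = 0.93 with each other, and miR-150 had r = 0.90 with miR-142-3p and r = 0.91 with miR-223. Once each group was centred on its own mean these values were 0.72, 0.49 and 0.64, and 0.39, -0.13 and 0.31 over the 7 libraries other than the fourth AA library. miR-142-3p and miR-142-5p, which are cut from the same hairpin, had r = -0.02, and -0.47 after centring. The fourth AA library alone set these values, since the other 7 libraries gave r = 0.85, and 0.75 after centring. The 3 miRNAs most like miR-142-3p were miR-511*, miR-130b and miR-15b* (r = 0.98, 0.97 and 0.97, and 0.89, 0.82 and 0.83 after centring). Those most like miR-223 were miR-187, miR-21 and miR-322 (r = 0.96, 0.95 and 0.95, and 0.86, 0.83 and 0.81 after centring). All 6 of these were called higher in the AA group, against 10.4% of all tested miRNAs. Whether a near miRNA was called follows in part from the ranking by r, which used both groups together. The nearest to miR-150 were miR-152*, miR-34c and miR-187 (r = 0.97, 0.94 and 0.94), and the nearest to miR-223* were miR-374, miR-872* and miR-425 (r = 0.93, 0.90 and 0.89). miR-142-5p was nearest to miR-141, miR-497 and miR-25 (r = 0.91, 0.89 and 0.89), none of which was called. Without the fourth AA library, the other 7 libraries gave r = 0.92, 0.84 and 0.75 for these miRNAs and 0.85 for miR-142-3p. Over the same 7 libraries r was 0.98, 0.98 and 0.96 for the miRNAs nearest to miR-142-3p and 0.95, 0.93 and 0.92 for those of miR-223. It was 0.99, 0.92 and 0.92 for those of miR-150, and 0.85, 0.76 and 0.74 for those of miR-223*. Centred values without that library were not computed for the nearest miRNAs.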

How the data were processed

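Small RNA libraries of 8 rat kidneys were read on the Genome Analyzer II. The authors deposited whole-number counts of reads per known rat miRNA without normalization, after mapping with miRanalyzer and Bowtie to miRBase. The submitters' processing notes name Bowtie and DESeq, without versions. Groups and library numbers were taken from the sample titles.

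Read numbers were compared in edgeR 4.0.16 under R 4.3.3 (TMM, quasi-likelihood test, Benjamini-Hochberg adjustment over the 367 miRNAs that reached 10 reads in 4 or more libraries, threshold 0.05). Standard errors of fold changes were derived from the F statistic, as the absolute log2 value over its root. CPM uses TMM library sizes. Log2 ratios used a pseudocount of 0.5 and, for single ratios, the exact permutation test. Their standard error joins the spread of both groups. Arm ratios of all hairpins were tested with limma 3.58.1. Log2 CPM for r used a prior count of 2. Scripts were tested on simulated data. Alternatives included DESeq2 1.42.0, other scalings and read minimums, a block for the library number, a pseudocount of 5 and each library left out.

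Libraries of a group differed by a chi-square of at least 393.9 per degree of freedom, so none was listed more than once within its group. At 13412373 to 15616670 reads per library, 1 CPM is 12.3 to 18.4 reads. Named miRNAs are the members, the marker lists and the 3 miRNAs most like each tested member. The members and lists were chosen with earlier results of these data known. Sequences and gene names are from RefSeq on GRCr8.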

Additional observations from a re-analysis of the deposited data

Results flagged for a closer look

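Over 42 groups of 4 libraries, made up of the tested members, the summed marker lists and the ratios, 4 values stood far from the other 3 of their group by Dixon's criterion, and about 1 in 20 groups would do so by chance. The log2 ratio of miR-142-3p to the red blood cell miRNAs was 4.62 in the fourth AA library, against 2.23 to 2.30 in the other AA libraries. In that library miR-142-3p was the highest and the summed red cell list the lowest of all 8, at 3875 and 158 CPM. The log2 ratio of miR-142-5p to the red blood cell miRNAs was -2.78 in the first AA library, against -2.43 to -2.37 in the other AA libraries. The liver miRNA miR-122 was at 53.0 CPM in the first control library, against 4.05 to 5.89 in the other control libraries, and at 523 CPM in the second AA library, against 0.696 to 2.96 in the other AA libraries. Neither of these 2 libraries was the highest or the lowest of its group for miR-223 or miR-150, whereas the first control library was the highest of its group for miR-142-3p and the second AA library the highest of all for miR-142-5p, at 104 CPM. The cause of these values was not tested.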

How the results depend on the processing

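miR-142-3p was called higher in all 16 alternative fits, with a log2 fold change of 1.14 to 1.69. miR-223 was called in 10 of 16. Leaving out 1 library at a time gave 0.73 to 1.19 for miR-223, -0.10 to 0.47 for miR-142-5p, 0.39 to 0.65 for miR-150 and 0.70 to 1.38 for miR-223*, which was called only without the second AA library. miR-150 was called with total counts (0.80), the DESeq2 Wald test (0.52) and without the 2 libraries numbered 4 (0.55), with adjusted p of 0.0244, 0.0244 and 0.0454, over a range of 0.0244 to 0.201. miR-223* was called with total counts (1.42, adjusted p = 0.0392). The cause was not tested. The number of miRNAs called was 60, of which 38 were higher. With 1 library left out it was 36 to 54, with 25 to 36 higher, fewest when control 2 was left out, and 38 when control 1 was. With total counts 54 of 68 calls were higher. The log2 ratios kept their sign under every alternative run. With 1 library left out (the exact permutation test of these was added after the data were seen, the values were planned) the difference was 0.29 to 0.57 for miR-223 to miR-150, -0.57 to -0.33 for miR-223 to miR-142-3p, -0.97 to -0.69 for miR-150 to miR-142-3p and 0.69 to 1.48 for miR-142-3p to miR-142-5p. To the red cell miRNAs it was 1.68 to 2.47 for miR-142-3p, 0.93 to 1.13 for miR-142-5p, 1.24 to 2.05 for miR-223 and 0.93 to 1.63 for miR-150. Without both libraries numbered 4 the ratios are values only, since 3 against 3 rats cannot go below p = 0.1 in the exact permutation test. The limma fit of arm ratios called 5 hairpins with a pseudocount of 5 and 0 to 4 with 1 library left out, with 0 calls without the second or the third control library (14 and 17 hairpins at an unadjusted p under 0.05). The arm ratio of miR-223 changed sign, to 0.16 with a pseudocount of 5 and 0.24 without both libraries numbered 4, and was -0.48 to 0.13 with 1 library left out.

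Library numbers 1 to 4 appear in the titles of either group. When 2 libraries of 1 number were compared, their deviations from the group means correlated at 0.05, 0.20, 0.14 and 0.35 across 367 miRNAs, and 6 of 8 libraries correlated best with their own number. Because number 1 stayed under 0.1 and no label says what a number stands for, the libraries were not treated as pairs. With the replicate number as a block, 78 miRNAs were called and miR-150 was among them (log2 fold change 0.57, adjusted p = 0.0412 from edgeR), while the calls of the other members and of both arm ratios did not change. miR-150* and rno-mir-150* are limited by depth, with at most 24 reads in a library.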
